A study of Zea mays with 6 samples.

Results

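The 100 genes described here were those whose transcript level in a single maize leaf library, wild type replicate 3, stood farthest above the other 5 libraries of the study. They were chosen by measured values. Counts were scaled to 1e+06 per library (CPM). The 14561 of 39628 genes with at least 50 counts in wild type replicate 3 were then ranked by their CPM there divided by the highest CPM of the other 5 libraries plus 1. The first 100 were taken after 6 genes had been left out of the ranking, among them the clock genes GI, gigz1b and PRR59 and the day-length gene conz1. Because that library chose the members, its values against the other libraries are given as a description, with no test.

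The leaves came from field-grown maize (Zea mays) at the stage of 6 leaves. Wild type plants of Q319 gave 3 libraries, and the transgenic line L100 gave 3 more. Q319 is a maize inbred line. The labels name neither the transgene of L100 nor a treatment nor the hour of sampling, and they describe a single transgenic line. They also leave unsaid whether each library had its own plant, so the p-values below measure only the spread between these samples, which may be technical.

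Many leaf transcripts follow the day. The plant circadian clock is a loop of genes that repress each other in turn, with one set expressed near dawn and another, including GIGANTEA (GI) and the pseudo-response regulators, expressed late in the day. Some CONSTANS-like proteins act in the sensing of day length. Genes for thiamin, pigment and electron transport functions in chloroplasts can also cycle. Drought acts on leaf transcripts through abscisic acid (ABA), a hormone whose signal is relayed by SnRK2 kinases and restrained by clade A type 2C protein phosphatases.

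Total counts were 8320337 to 9922468 in the wild type and 6458248 to 7536583 in L100, with the largest total in wild type replicate 3. The enzymes that define the leaf's photosynthetic cell types were abundant in every library: 9 mesophyll and bundle sheath markers, none of them at 0, summed to 69230 to 88142 CPM in the wild type and 96412 to 104737 CPM in L100. Wild type replicate 3 had the most genes at high ratios, followed by wild type replicate 1. When each library was ranked in turn in the same way, with no gene left out, wild type replicate 3 had 875 genes (6.01% of those past its count minimum) at or above a ratio of 2. Wild type replicate 1 had 277 (1.99%), wild type replicate 2 had 56 (0.454%), and the L100 replicates had 8, 9 and 26 (0.0662%, 0.0799% and 0.226%). At steeper ratios wild type replicates 3 and 1 lay closer together. They had 122 and 82 genes at a ratio of at least 5, and 36 and 28 at a ratio of at least 10. Over all genes past the minimum, the median log2 ratio of wild type replicate 3 to the median of the other 5 libraries was 0.41 on the CPM scale and 0.10 after TMM scaling, a library scaling in edgeR that damps the weight of a few abundant genes. In an alternative added after the data were seen, TMM scaling left 573 genes (3.94%) at or above a ratio of 2 in wild type replicate 3. The other libraries were not counted again with TMM scaling. The TMM factor was largest for wild type replicate 3, at 1.21.

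**Figure D1:**
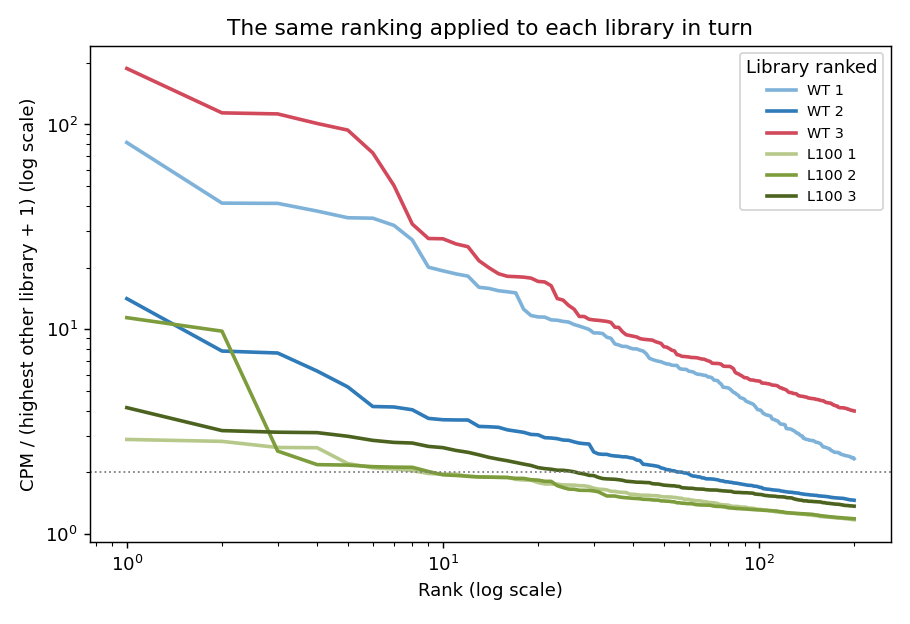
Ratio of each library's CPM to the highest CPM of the other libraries plus 1 (vertical, log scale) against the gene's rank in that library (horizontal, log scale), 1 line per library, with a dotted line at a ratio of 2. The line of wild type replicate 3 starts at 188 and is the highest at ranks 1 and 100, wild type replicate 1 comes next with 81.6 at its first rank, and the L100 lines start between 2.89 and 11.4.

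The 100 genes were low in most of the other libraries. Their median level was 33.5 CPM in wild type replicate 3, against 1.58 and 1.02 CPM in wild type replicates 1 and 2 and 0.995, 0.907 and 1.24 CPM in L100 replicates 1 to 3. Together they took 1.83% of all counts in wild type replicate 3 and 0.0734% to 0.127% in the others. These are levels in bulk leaf RNA, in which more cells of a type and more RNA per cell cannot be told apart. The levels in wild type replicate 3 ran from 5.64 to 5296 CPM: 27 members had at least 100 CPM and 33 had less than 20 CPM. In the other 5 libraries, 31 members stayed under 1 CPM throughout, 5 of them at 0 counts in all 5 libraries, while 23 reached at least 10 CPM in at least 1 of them. Among members with more than 3 counts over the other 5 libraries together, the median fold above those pooled libraries was 21.8. Members with fewer counts there were given no such fold.

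**Figure D2:**
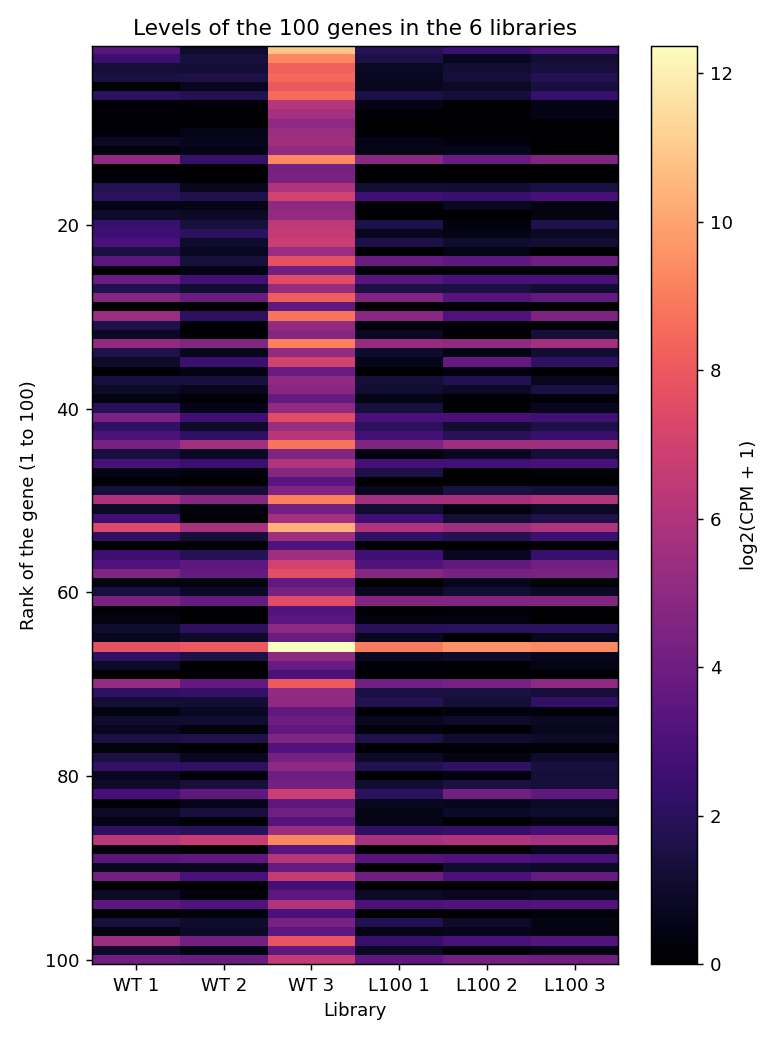
Levels of the 100 members as log2(CPM + 1) (colour) in the 6 libraries (columns), with the genes in the order of their rank from 1 at the top to 100. The column of wild type replicate 3 is brighter than the other 5 in every row, as the ranking requires, and scattered bright cells in the other columns mark the 23 members with at least 10 CPM elsewhere.

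The ranking had no gap at its end. The last members inside were GRMZM2G373124 with a ratio of 5.57, PAPc (GRMZM2G014193) with 5.55 and GRMZM2G089944 with 5.45. The first genes outside were GRMZM2G479529 with 5.45, GRMZM2G345687 with 5.44 and GRMZM2G017244 with 5.43. The median ratio of the members was 8.10, 35 members had a ratio of at least 10, and 7 had at least 50.

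Of the 100 members, 11 carried a gene symbol, 62 matched a gene record without one, 4 had several records and got no name, and 23 matched none. Among all genes past the count minimum, 10.5% carried a symbol. What the members do could therefore be read for about 1 in 10 of them, and the rest are given by their identifiers.

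The gene at the head of the ranking and the most abundant member were a pair of thiazole synthase genes. These THI4-type plastid proteins make the thiazole part of thiamin, vitamin B1. Transcripts of thi1-2 (GRMZM2G074097, rank 1) stood at 9.24 and 1.08 CPM in wild type replicates 1 and 2, at 1924 CPM in replicate 3, and at 2.79, 5.02 and 7.28 CPM in L100. Wild type replicate 3 was thus 378-fold above the pooled other libraries (95% exact counting interval 329 to 438). Its partner thi1 (GRMZM2G018375, rank 66) stood at 212, 256 and 5296 CPM in the wild type and at 502, 742 and 654 CPM in L100, an 11.7-fold excess in wild type replicate 3 (11.5 to 11.9). Counting intervals here and below cover counting error only.

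Outside wild type replicate 3 the genes differed in level: thi1 had at least 212 CPM in every library, whereas thi1-2 was below 10 CPM in the other 5. The share of the pair's counts given to thi1-2 was 4.18% in wild type replicate 1 (exact 95% interval 3.34 to 5.16), 0.421% in replicate 2 and 26.6% in replicate 3 (26.3 to 27.0), and 0.552%, 0.673% and 1.10% in L100. Per length, thi1 had an FPKM of 2950 in wild type replicate 3, the 12th highest of all genes there, and thi1-2 had 1120, the 59th highest. Since the genes are close copies, the split of reads between them is uncertain, but their sum went from 221 and 257 CPM in wild type replicates 1 and 2 to 7219 CPM in replicate 3, with 505, 747 and 661 CPM in L100. Without the pair, the members still took 1.11% of the counts of wild type replicate 3. The thiamin gene THIM (GRMZM2G094558), named for hydroxyethylthiazole kinase, had no such level there, with 7.10, 4.21 and 5.74 CPM in the wild type and 4.25, 3.63 and 2.94 CPM in the transgenic line.

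**Figure D3:**
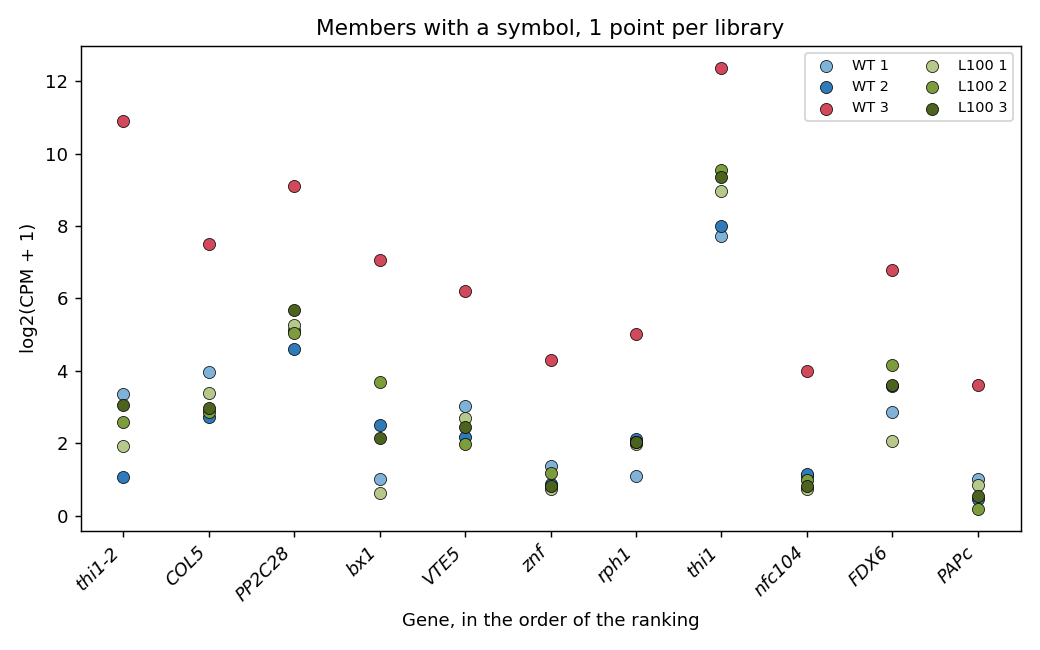
Levels of the 11 members with a symbol as log2(CPM + 1) (vertical), 1 point per library, with the genes in the order of their rank (horizontal). The point of wild type replicate 3 is the highest for each gene by the choice of members, and thi1 lies highest in all libraries.

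Among the members with symbols, the 1 on the lists for clock, day length and light was COL5 (GRMZM2G075562, rank 26), a CONSTANS-like gene of the B-box and CCT domain family. COL5 was placed there by its symbol, and whether it acts in the sensing of day length was not determined here. Its transcripts stood at 14.5, 5.65 and 179 CPM in the wild type and at 9.42, 6.28 and 6.81 CPM in L100, a 20.5-fold excess in wild type replicate 3 (18.2 to 23.1). The other 5 libraries lay within a factor of 3 of each other, and the wild type and L100 values among them overlapped. Its relatives did not share this level. COL10 (GRMZM2G012717) had 40.4, 3.25 and 83.3 CPM in the wild type and 35.8, 8.10 and 29.3 CPM in L100, a ratio of 2.01. COL8 (GRMZM2G114137) was lower in wild type replicate 3 (72.7 CPM) than in the other 5 libraries (91.8 to 124 CPM).

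Genes of the late-day arm of the clock were left out of the ranking by its rule, and their values are given for reference. PRR59, a pseudo-response regulator, would have ranked 81st, with 9.81, 8.53 and 80.8 CPM in the wild type and 9.82, 7.68 and 11.3 CPM in L100. GI and gigz1b, the maize GIGANTEA genes, had ratios of 2.83 and 3.33, below the last member's, and were abundant in every library: GI had 420, 448 and 1293 CPM in the wild type and 367 to 456 CPM in L100. The late-day list held these 3 genes and no other, and all 3 had a ratio of at least 2, beside 6.01% of all genes. No gene matched the dawn list, so the morning arm of the clock was not analysed here. In the light signalling list 1 of 5 genes past the count minimum reached a ratio of 2. This was phyA2 (GRMZM2G181028), a phytochrome A photoreceptor gene, at 23.9 CPM in wild type replicate 3 and 1.58 to 5.84 CPM elsewhere.

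On the drought and ABA list, the member was PP2C28 (GRMZM2G071087, rank 33), a type 2C protein phosphatase placed there by its symbol. Whether PP2C28 belongs to clade A was not determined here. Its levels were 34.0, 23.2 and 552 CPM in the wild type and 37.6, 32.1 and 50.2 CPM in L100, a 15.9-fold excess in wild type replicate 3 (14.97 to 16.9). The other 5 libraries again lay close together, with L100 and the wild type overlapping. Of the 16 other type 2C phosphatase genes past the count minimum, 0 had a ratio of at least 2, beside 6.01% of all genes. Their ratios ran from 0.286 to 1.29. Of these 16, 2 were highest in wild type replicate 3, beside 48.1% of all genes past the minimum. PP2C28 was chosen for its ratio and these relatives were not. On the drought and ABA list 4 of 35 genes reached a ratio of 2 (11.4%, beside 6.01% of all genes). With TMM scaling 2 of 35 did (5.71%, beside 3.94% of all genes). The list holds PP2C28, which was chosen for its ratio. Beside PP2C28, those at a ratio of 2 before TMM scaling were RAB15, aba1 and the SnRK2-family kinase gene SnRK2.6. RAB15 (GRMZM2G165901) had 118, 79.1 and 818 CPM in the wild type and 69.1, 99.7 and 181 CPM in L100. In wild type replicate 3 aba1 (GRMZM2G136910) had 230 CPM against 55.3 to 97.2 CPM elsewhere, and SnRK2.6 (GRMZM2G130018) had 53.2 CPM against 11.1 to 24.4 CPM.

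The chemical defence member was bx1 (GRMZM2G085381, rank 35), which makes the indole from which maize builds benzoxazinoids, its main defence compounds against insects and fungi. It stood at 1.01, 4.69 and 132 CPM in the wild type and at 0.531, 12.0 and 3.41 CPM in L100, 31.8-fold higher in wild type replicate 3 than in the pooled others (26.9 to 37.7). Outside that library its values spread more than 20-fold, with the lowest and the highest both in L100. The next enzyme of the pathway, the cytochrome P450 bx2 (GRMZM2G085661), was also highest in wild type replicate 3, at 1.80, 6.61 and 34.4 CPM in the wild type and 1.46, 0.28 and 0.62 CPM in L100, with a ratio of 4.52. The genes differed in L100 replicate 2, where bx1 was highest and bx2 lowest of the remaining libraries. On the benzoxazinoid list these 2 of 11 genes past the minimum had a ratio of at least 2 (18.2%, beside 6.01% of all genes, and 18.2% beside 3.94% with TMM scaling). Of the 11 genes, 4 were highest in wild type replicate 3, beside 48.1% of all genes. The list's median log2 ratio to the median of the other libraries was 0.83, beside 0.41 for all genes, and its lowest ratio was 0.218, for bx9. The list holds bx1, which was chosen for its ratio.

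Further members with symbols were VTE5 and FDX6, the latter on the photosynthesis list by its symbol alone. VTE5 (GRMZM2G104538, rank 43), a phytol kinase that returns phytol from chlorophyll to tocopherol (vitamin E) synthesis, stood at 7.22, 3.49 and 73.1 CPM in the wild type and at 5.44, 2.93 and 4.49 CPM in L100, a 15.2-fold excess (12.9 to 18.0). VTE2-1 (GRMZM2G048472), the homogentisate phytyltransferase gene of the same route, had a smaller one, with 16.5, 5.53 and 52.1 CPM in the wild type and 13.3, 7.68 and 7.59 CPM in L100, its ratio being 2.98. FDX6 (GRMZM2G106190, rank 82), a ferredoxin (an iron-sulphur electron carrier), stood at 6.20, 10.9 and 109 CPM in the wild type and at 3.18, 16.7 and 11.3 CPM in L100, an 11.6-fold excess (10.3 to 13.1). The other ferredoxin genes fdx2, fdx3, fdx5 and FDX1 had ratios of 0.245 to 0.958. Of these 4, 0 were highest in wild type replicate 3, beside 48.1% of all genes past the minimum. Photosynthesis genes as a list were lower rather than higher there. Of 36 past the minimum, 2 had a ratio of at least 2, the member FDX6 and mdh2, beside 6.01% of all genes. The list's median log2 ratio of wild type replicate 3 to the median of the other libraries was -0.36, beside 0.41 for all genes.

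The remaining members with symbols were low in most libraries. nfc104 (GRMZM2G032711, rank 74), of a family of nucleosome and chromatin assembly factors, stood at 1.13, 1.20 and 14.9 CPM in the wild type and at 0.663, 0.977 and 0.774 CPM in L100, a 15.5-fold excess (10.7 to 22.8). Its 3 relatives nfc101 to nfc103 were highest in wild type replicate 3 too, by ratios of 1.02 to 2.14, as were 48.1% of all genes past the minimum. With TMM scaling 2 of the 3 were, nfc103 being highest in L100 replicate 2, and 30.4% of all genes. The zinc finger gene znf (GRMZM2G478553, rank 60) had 18.7 CPM in wild type replicate 3 and 0.663 to 1.58 CPM elsewhere. rph1 (GRMZM2G345039, rank 64) had 31.3 CPM against 1.13 to 3.37 CPM, and PAPc (rank 99) had 11.2 CPM against 0.140 to 1.01 CPM.

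Most of the steepest and most abundant members had no symbol. GRMZM2G028665, at rank 2, stood at 4.62, 1.56 and 641 CPM in the wild type and at 1.99, 0.698 and 1.24 CPM in L100, a 300-fold excess (241 to 377). Ranks 3 to 5 were GRMZM2G012566 with 304 CPM, GRMZM2G006287 with 352 CPM and GRMZM2G343149 with 254 CPM in wild type replicate 3. In the other 5 libraries each of these 3 genes had at most 2.48 CPM, so they were low outside the library that chose them. GRMZM2G012566 and GRMZM2G006287 still had counts in every library, while GRMZM2G343149 had 0 in wild type replicate 1. GRMZM2G068715 (rank 53) was the third most abundant member, with 170 and 51.7 CPM in wild type replicates 1 and 2, 1336 CPM in replicate 3 and 64.2, 43.1 and 62.4 CPM in L100. GRMZM2G042253 (rank 13) came next with 32.0, 3.85 and 658 CPM in the wild type and 27.997, 13.3 and 21.8 CPM in L100. In both of these genes wild type replicate 1 was the highest of the remaining libraries.

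The 5 members without a count in the other libraries were GRMZM2G352274 (18.6 CPM in wild type replicate 3), GRMZM2G130232 (11.1 CPM), GRMZM2G041694 (7.46 CPM), GRMZM2G042756 (6.95 CPM) and GRMZM2G165633 (5.64 CPM). Set against a floor of 3 counts over the 5 other libraries together, GRMZM2G352274 was at least 238-fold higher and GRMZM2G165633 at least 72.1-fold higher in wild type replicate 3. Zero counts in the other libraries show only that the transcripts were not detectable at this depth.

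Of the 756 genes on lists of functions, 389 were past the count minimum, and 4 of them (1.03%) were members, beside 0.687% of all genes past the minimum. With 11 members carrying a symbol, few could match a list. The 4 were COL5 (flowering and day length), PP2C28 (drought and ABA), bx1 (benzoxazinoid) and FDX6 (photosynthesis). The lists with the largest shares of genes at a ratio of at least 2 were the late-day clock (3 of 3), flowering and day length (2 of 5, or 1 of 5 with TMM scaling), light signalling (1 of 5) and senescence and autophagy (4 of 20), beside 6.01% of all genes. The senescence genes were the cysteine protease genes ccp1 (GRMZM2G098298), ccp2 (GRMZM2G038636) and mir2 (GRMZM2G150256), and SAG (GRMZM2G041175). Of these, ccp1 had 313, 108 and 1257 CPM in the wild type and 137 to 164 CPM in L100, and SAG had 40.7, 19.0 and 187 CPM and 15.02 to 20.2 CPM. The late-day list consists of genes that the rule names and leaves out, and the flowering count includes COL5, a member, so neither share is independent of the choice of genes. The lists are short, and nothing is called particular to any of them.

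On the stress lists, the counts at a ratio of 2 stand beside 6.01% of all genes past the minimum. At that share a list this short can hold no such gene, so a count of 0 is not read as a difference. No gene reached a ratio of 2 on the heat shock (0 of 12), cold (0 of 5), ethylene (0 of 12), WRKY (0 of 8), NAC (0 of 6) and MYB (0 of 21) lists. The heat shock gene HSP90-1 (GRMZM2G024668) was lowest in wild type replicate 3, at 79.2 CPM against 466 to 2380 CPM elsewhere. Counts were 2 of 20 for jasmonate (ZIM4 and lox12), 2 of 29 for oxidative stress, 1 of 22 for defence, 1 of 25 for calcium and kinase signalling, 2 of 16 for nutrient starvation, 1 of 11 for sugar and starvation, 1 of 55 for bHLH, bZIP and zinc finger factors and 1 of 14 for reference genes. These shares rest on 1 or 2 genes each. With TMM scaling, which left 3.94% of all genes, drought and ABA had 5.71%, jasmonate 10%, nutrient starvation 6.25% and senescence and autophagy 20%.

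Markers of other tissues also differed in wild type replicate 3. The 32 dividing tissue genes, 6 of them at 0 in every library, summed to 747 CPM there against 336 and 510 CPM in the other wild type libraries and 412 to 437 CPM in L100, and 1 of 11 past the minimum (the histone gene hon110) reached a ratio of 2. The 10 epidermis and wax genes, 1 of them at 0 there, summed to 111 CPM, against 263 to 453 CPM in the other 5 libraries. Of the 7 past the minimum, 0 reached a ratio of 2, though 2 were highest in wild type replicate 3. The 6 vein and phloem genes, none at 0, summed to 851 CPM, inside the range of 724 to 1243 CPM of the others, and 1 of 6 reached a ratio of 2. For the mesophyll and bundle sheath list, 0 of 8 did. Over all genes past the minimum, 6.01% reached a ratio of 2 and 48.1% were highest in wild type replicate 3. The part of these differences in the members' levels was not tested, and neither the hour nor the leaf position of sampling could be read from the labels.

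**Figure D4:**
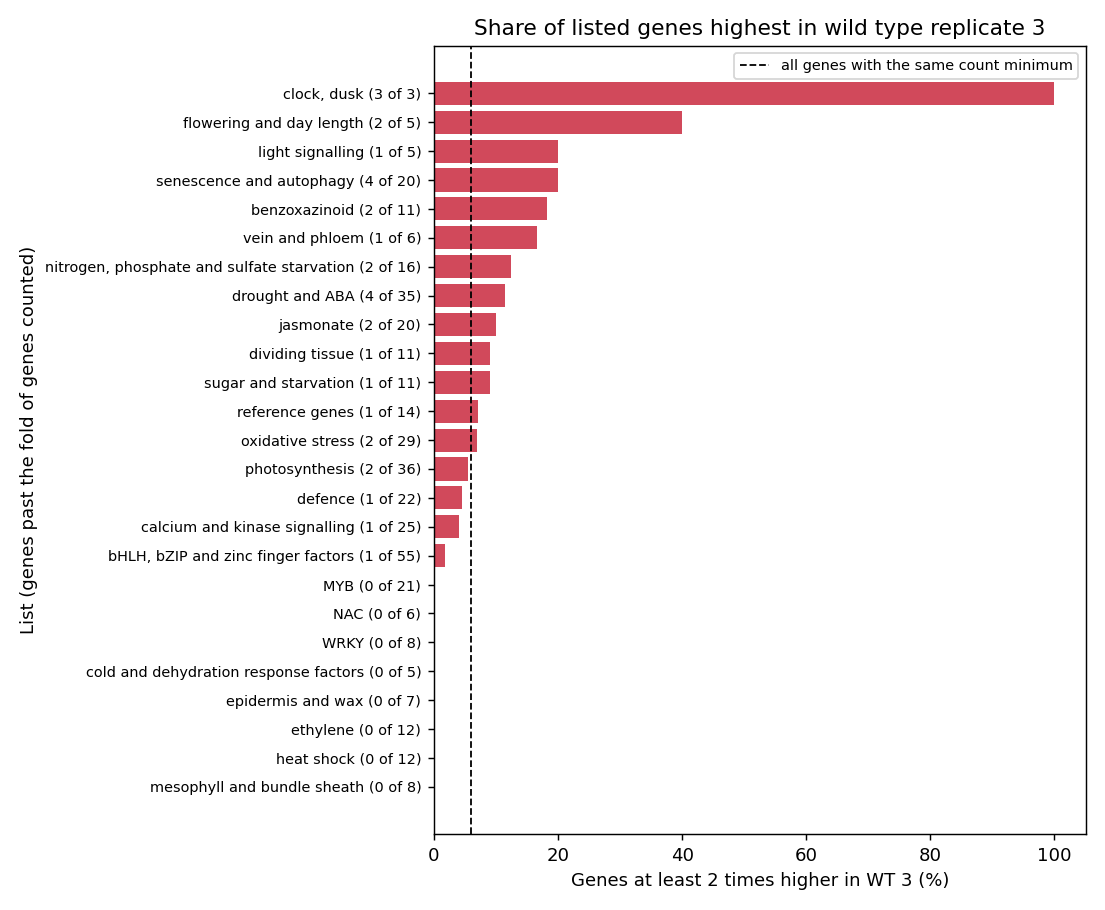
Share of each list's genes past the count minimum that stood at a ratio of at least 2 in wild type replicate 3 (horizontal, percent), with 1 bar per list and the number of genes beside its name. The late-day clock list, made up of genes the rule left out, has all of its 3 genes past that fold, and several stress lists have 0, beside 6.01% of all genes.

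Outside the library that chose them, the members had no common order of libraries. Among the other 5 libraries, the highest value fell in wild type replicate 1 for 41 members, in replicate 2 for 15, and in L100 replicates 1 to 3 for 9, 12 and 18, with 5 members at 0 throughout. The same shares over all genes past the minimum were 43.8%, 18.3%, 9.80%, 11.0% and 17.0%. Both remaining wild type libraries lay above all 3 L100 libraries for 13 members, against 19.7% of all genes, and below all 3 for 9 members, against 6.77%. Among the 23 members with at least 10 CPM outside wild type replicate 3, replicate 1 was above replicate 2 in both groups for 10, including COL5, PP2C28 and GRMZM2G068715, and below it in both groups for 6, including bx1, thi1 and FDX6. Those shares, 43.5% and 26.1%, stand beside 44.96% and 26.8% of all genes at that level.

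A comparison of L100 with wild type replicates 1 and 2 leaves out wild type replicate 3. It gave no call among the members in edgeR and 2 in DESeq2. The ranking divided by the highest CPM among these same libraries plus 1, so their values also bore on which genes became members. A gene high in any of them was less likely to be taken. In edgeR's quasi-likelihood test, 151 of 19026 genes (0.794%) passed an adjusted p of 0.05, 82 higher and 69 lower in L100. Of the members, 53 had enough counts to be tested and 0 passed. In edgeR 6 members, 3 higher and 3 lower, had an unadjusted p under 0.05, a share of 11.3% beside 10.1% of all genes tested. DESeq2 called 2 of the 79 members to which it gave an adjusted p, thi1 higher and GRMZM2G373124 lower in L100, against a background of 2.44% of all genes. The members' log2 fold changes ran from -2.53 to 1.57, with 28 above and 25 below 0 and a median of 0.04, where all genes had a median of -0.0016. The shares of members with low p were thus near the background.

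Among these 6, named after their values were seen, thi1 had the largest positive difference. It averaged 234 ± 31.0 CPM (SD, n = 2) in wild type replicates 1 and 2 and 633 ± 121 CPM (SD, n = 3) in L100, a log2 fold change of 1.57 ± 0.33 (SE) with an adjusted p of 0.0987 in edgeR and 0.000316 in DESeq2. GRMZM2G373124, with 40.8 and 17.4 CPM in the wild type and 4.38, 6.42 and 8.36 CPM in L100, had a log2 fold change of -2.01 ± 0.40 and an adjusted p of 0.0865 in edgeR and 0.00299 in DESeq2. GRMZM2G107945, with 4.96 and 3.12 CPM against 0.663, 0.419 and 0.774 CPM, had a log2 fold change of -2.53 ± 0.51 and an adjusted p of 0.0902 in edgeR. In all 3 genes wild type replicates 1 and 2 did not overlap the L100 libraries, yet none passed the threshold in edgeR. GRMZM2G424857 (1.09 ± 0.38), GRMZM2G141922 (-1.54 ± 0.55) and GRMZM2G023591 (0.70 ± 0.26) had edgeR adjusted p-values of 0.365, 0.381 and 0.411.

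Of the other members with symbols, 6 had a difference between L100 and wild type replicates 1 and 2 within its standard error. The log2 fold change was 0.16 ± 0.76 (SE) for thi1-2, -0.25 ± 0.40 for COL5, 1.04 ± 1.16 for bx1, -0.16 ± 0.42 for VTE5, 0.53 ± 0.59 for rph1 and 0.42 ± 0.67 for FDX6, with edgeR adjusted p-values of 0.839 to 0.972. PP2C28, whose difference exceeded its error, had 0.63 ± 0.27 and an edgeR adjusted p of 0.497. The genes znf, nfc104 and PAPc had too few counts for edgeR's filter, and DESeq2 did not call them. Of 512 listed genes tested, edgeR called 6 (1.17%, beside 0.794% of all genes): 1 higher on the heat shock and 1 higher on the photosynthesis list, and 1 lower on each of the MYB, benzoxazinoid, senescence and dividing tissue lists. The other lists had 0 calls in edgeR.

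**Figure D5:**
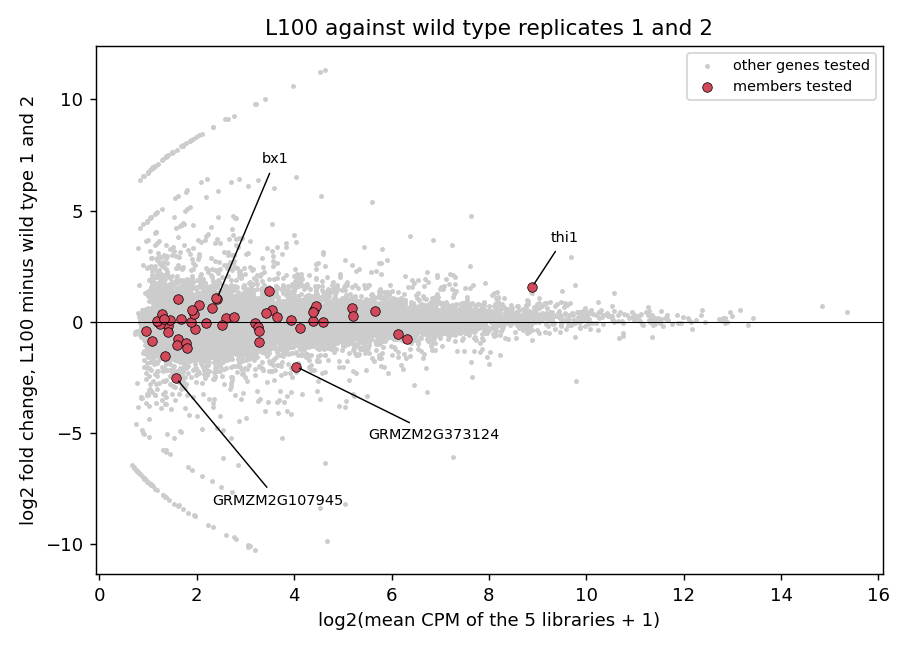
Log2 fold change of L100 against wild type replicates 1 and 2 (vertical) over the mean level of the 5 libraries as log2(CPM + 1) (horizontal), with all tested genes as small points and the 53 tested members marked. The members lie on both sides of 0, 28 above and 25 below, and 0 of them passed the threshold in edgeR.

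With all 6 libraries the comparison of the genotypes holds the library that chose the members, and nothing is read from their count there. In edgeR 156 of 18702 genes (0.834%) passed, and 0 of the 53 members tested did. In edgeR 24 members had an unadjusted p under 0.05, all lower in L100, beside 10% of all genes. DESeq2 called 5 of 48 members with an adjusted p, beside 2.5% of all genes. All 53 fold changes were below 0, with a median of -2.36 and a range of -6.97 to -1.23. The sign of 28 of them turned from above 0 without wild type replicate 3 to below 0 with it. For thi1 the wild type mean became 1921 ± 2922 CPM (SD, n = 3) and the log2 fold change went from 1.57 to -1.23, so 1 library set its direction.

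The members shared little in position or length. The order of the annotation was taken over genes with 1 matched record and a count in some library, so other genes between them were skipped. Of the 73 members placed in it, 1 pair, GRMZM2G034645 and GRMZM2G428216, lay within 3 places of each other, with 2 such genes between them. No count of such pairs was made over all genes. The members' median gene length, as deposited, was 1165.5 bases, beside 1273 bases for all genes past the count minimum.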

How the data were processed

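Leaf RNA from 6 libraries (3 wild type, 3 L100, by the genotype label) was made into Illumina libraries, per the labels. The submitters' processing notes name Bowtie 0.12.2 and B73 RefGen_v3, without their roles. How reads were counted is not given in the sources. Per the file headers, the authors deposited an estimated count per gene, an FPKM value, a gene length and scaled fragment values. The authors' scaled signal was not used. The deposited FPKM served for levels within a library and for an alternative ranking. Of the estimated counts, 0.300% lay more than 0.001 from a whole number, and all were rounded. CPM was computed on the sum of counts. Each total comes from the deposited table, so depth limits low genes most, and a floor of 3 counts over the pooled other libraries bounds folds against 0.

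The genotypes were compared with edgeR 4.0.16 (quasi-likelihood, TMM, filterByExpr) in R 4.3.3 with limma 3.58.1, fitted on all genes with Benjamini-Hochberg adjustment, and with DESeq2 1.42.0 as an alternative. Standard errors were the absolute log2 fold change over the root of the F statistic. The fits were tested on simulated data. In the edgeR fit without wild type replicate 3, 2% of simulated 2-fold changes were called, 45.3% of 4-fold and 81.3% of 8-fold changes. Of the calls, 6.65% were false. A lack of calls therefore says little about changes near 2-fold. Other alternatives were other size factors, other filters, a replicate block, each library left out, and other constants and count minimums in the ranking. The members and the gene lists were chosen with earlier results of these data known, and 36 list matches by letters alone were dropped after the symbols were seen. Of 26 lists, 1 matched no gene. Pollen and root markers were not analysed here.

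Gene names came from RefSeq records on Zm-B73-REFERENCE-NAM-5.0. That build is later than the files' and was used only for names and neighbour order. Of the IDs, 18774 (47.4%) matched a record and 519 matched more than 1. The genes named are members with a symbol, the 5 ranked first, the 5 most abundant, members on a list, and those beside the last rank. Other genes were named as relatives of members or after their values were seen.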

Additional observations from a re-analysis of the deposited data

How the results depend on the processing

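The count of 151 genes called between L100 and wild type replicates 1 and 2 was 552 with DESeq2, 521 with no filter, 98 with a stricter filter and 149 with other size factors, and 0 to 1047 with 1 library left out. The 0 members called became 2 with DESeq2 and 3 with no filter (thi1, GRMZM2G373124 and GRMZM2G107945), and 0 to 5 with 1 library left out, highest without wild type replicate 2. Their median log2 fold change was then -0.18 to 0.30. With all 6 libraries the 156 calls were 602 with DESeq2, 74 with a stricter filter and 0 to 222 with 1 library left out, and the members called were 5 with DESeq2 and 0 to 1 with 1 library left out. With the replicate number as a block, 154 genes were called without wild type replicate 3 and 5 with it, and 0 members in each. Same-numbered libraries deviated together for replicates 1 and 2 (correlations of 0.382 and 0.346, with -0.300 and -0.405 when these 2 numbers were crossed) but not for replicate 3 (0.013). The labels give the numbers no meaning, and the 3 numbers were not taken as pairs. In the ranking, 53 of the 100 members were kept with a constant of 10 CPM, and 67 to 100 under the other settings. TMM scaling, added after the data were seen, left 573 of 875 genes at a ratio of at least 2. With 1 library left out, the log2 fold change turned its sign in 6 genes with no call in edgeR: thi1-2 ranged from -0.62 to 2.23 (-0.16 without L100 replicate 3), COL5 from -0.69 to 0.45, bx1 from -0.53 to 2.69, VTE5 from -0.49 to 0.33 (0.014 without L100 replicate 2), rph1 from -0.11 to 1.68 and FDX6 from -0.20 to 1.04 (-0.0082 without wild type replicate 1). The causes were not tested. Searches for promoter and protein motifs were not run, since no sequences were used here. Sampling hour, plant and harvest position cannot be told apart from the library, and every statement on wild type replicate 3 rests on 1 library.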

Other observations

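Some genes outside the 100 were lower where the members were highest. The epidermis and wax list had a median log2 ratio of -1.33 between wild type replicate 3 and the median of the other 5 libraries, beside 0.41 for all genes past the count minimum. Of its 7 genes past the minimum, 2 went the other way and were highest in wild type replicate 3. On the light signalling list the same ratio had a median of 1.64 (1.32 with TMM scaling). That list had only 5 genes past the minimum, 3 of them highest in wild type replicate 3, beside 48.1% of all genes. The WRKY list had a median of 0.80 (0.50 with TMM scaling), although 0 of 8 WRKY genes reached a ratio of 2. The left-out gene GRMZM2G148453, which carries no symbol here, would have ranked 12th, with 0.902, 0 and 48.1 CPM in the wild type and 0.133, 0.140 and 0 CPM in L100.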
